A study of Mus musculus with 2 samples.

Results

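Nuclear receptors are transcription factors that small fat-soluble molecules can switch on or off, and coregulators are the proteins through which they activate or repress genes. The 39 genes described here are 31 nuclear receptors and 8 coregulators named by symbol, out of 43346 Ensembl genes in the gene tables. They were found by matching the deposited gene identifiers, version ignored, to GENCODE symbols, and they carry 238 annotated transcripts.

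The material was the liver of 1 mouse, a C57BL/6J female of 10 weeks, from which polyA RNA was sequenced as part of the ENCODE project. The labels give 2 libraries, both technical replicates of biological replicate 1, and name no treatment and no other strain. They date the second technical replicate, called library 2 here, to May 2015 and say that it did not belong to an earlier publication. The first is called library 1. The only contrast is therefore library 2 against library 1 of the same animal, labelled as technical replicates. Whether both came from 1 RNA extract is not stated, so spread from extraction, date, handling and library preparation cannot be told apart.

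The expected counts summed to 19525500 in library 2 and 23309905 in library 1. Mitochondrially encoded genes took 14.9% of the TPM (a length-normalised share of all transcripts) in library 2 and 40.7% in library 1. All 8 hepatocyte markers were detected at a TPM of at least 1 in both libraries, with a summed level of 70753 TPM in library 2 and 30670 TPM in library 1. The same threshold was met in both libraries by 7 of 7 Kupffer cell, 7 of 7 endothelial, 4 of 7 stellate cell, 2 of 6 cholangiocyte, 1 of 5 lymphocyte, 0 of 5 adipocyte and 2 of 3 erythroid markers. The summed level of the 3 erythroid markers was 1127 TPM in library 2 and 56.4 TPM in library 1, and that of the 7 Kupffer cell markers was 173 TPM in library 2 and 70.3 TPM in library 1. The endothelial markers summed to 110 TPM in library 2 and 32.1 TPM in library 1, and the stellate cell markers to 150 TPM in library 2 and 162 TPM in library 1. Their part in the results was not tested. In such whole tissue, fewer cells of a type and less RNA per cell cannot be told apart.

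A typical nuclear receptor binds DNA through a pair of zinc fingers and binds its ligand through a separate pocket. Many of those prominent in liver pair with a retinoid X receptor, RXR, and sense bile acids, oxysterols, fatty acids or foreign chemicals. Without ligand several of them hold corepressors on their target genes, and with ligand they exchange these for coactivators. Steroid receptors act mostly as pairs of themselves, and some receptors, called orphans, have no settled natural ligand.

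The first zinc finger is the stretch that shows the kinship of the family, since 4 cysteines at fixed spacing hold a zinc ion. An open reading frame with that spacing was found in 30 of the 31 receptors, and none was found in Nr0b2, which is known to lack a DNA-binding domain. The finger codons of 8 receptors are given 5′ to 3′ from GENCODE M21 transcripts, 63 bases each. Those of Nr1i3 came from the coding isoform Nr1i3-202, which held 7.71% of the gene's TPM in library 2 and 0.26% in library 1. Nr1i3 and Nr1h4 were the receptors with the highest mean levels. By the scaled counts described below, Esrra, Nr1h2 and Ppard had the largest folds in favour of library 2. Nr2f2, Nr2c1 and Nr5a2 were lower in library 2 by the same counts. Capitals mark the last base of each codon, the position most free to vary.
Nr1i3: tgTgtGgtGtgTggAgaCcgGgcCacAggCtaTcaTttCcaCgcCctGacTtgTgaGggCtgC
Nr1h4: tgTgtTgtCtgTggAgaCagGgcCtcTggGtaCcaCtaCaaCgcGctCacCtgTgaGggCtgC
Esrra: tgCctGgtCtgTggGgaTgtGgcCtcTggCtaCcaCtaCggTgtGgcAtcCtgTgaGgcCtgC
Nr1h2: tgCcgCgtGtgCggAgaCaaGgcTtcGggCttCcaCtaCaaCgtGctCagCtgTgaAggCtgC
Ppard: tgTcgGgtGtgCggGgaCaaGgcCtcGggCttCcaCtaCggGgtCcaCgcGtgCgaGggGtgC
Nr2f2: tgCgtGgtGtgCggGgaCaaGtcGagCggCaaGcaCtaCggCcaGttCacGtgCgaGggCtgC
Nr2c1: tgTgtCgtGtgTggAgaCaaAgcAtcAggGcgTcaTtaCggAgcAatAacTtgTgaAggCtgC
Nr5a2: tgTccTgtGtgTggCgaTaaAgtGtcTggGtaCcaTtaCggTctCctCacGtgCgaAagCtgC
Of these last codon bases, 100% were G or C in the finger of Nr2f2 and 33.3% in that of Nr2c1, although both genes were lower in library 2.

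The liver expressed most of the 39 genes. In both libraries 26 of 39 reached a TPM of at least 1, which is 66.7%, beside 39.4% of the 21461 nuclear protein-coding genes. These 26 were 19 of 31 receptors and 7 of 8 coregulators. Another 10 members reached that level in library 2 alone, none did so in library 1 alone, and Nr2f1, Vdr and Pgr did so in neither. All nuclear protein-coding genes leaned the same way, with 49.8% detected in library 2 and 40.1% in library 1. The members together made up 0.201% of the expected counts in library 2 and 0.108% in library 1.

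Nr1i3 and Nr1h4, sensors of foreign chemicals and bile acids, led the order of mean TPM. Nr1i3, the constitutive androstane receptor that induces drug-metabolising enzymes, stood at 233.46 TPM in library 2 and 44.84 TPM in library 1, from 8245 and 2715 expected counts. It ranked first of the 39 in both libraries and held 26.7% of the summed receptor TPM in library 2 and 19.4% in library 1. Its mean was 139 ± 133 TPM (SD, n = 2 technical libraries), so the spread was nearly as large as the mean. Nr1h4, the bile acid receptor FXR, stood at 73.09 TPM in library 2 and 44.25 TPM in library 1, a mean of 58.7 ± 20.4 TPM (SD, n = 2). The ranges of Nr1h4 and Nr1i3 over the libraries overlapped, and in library 1 the genes were nearly equal.

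The remaining 3 sensors were much less even. Nr1h3, the oxysterol receptor LXR alpha that drives lipid synthesis and cholesterol export, had 73.21 TPM in library 2 and 1.75 TPM in library 1. Nr1h2, its more widely expressed paralog LXR beta, had 25.22 TPM in library 2 and 0.76 TPM in library 1, so it passed the detection level in library 2 alone. Nr1i2, the pregnane X receptor and main sensor of drugs, had 40.58 TPM in library 2 and 5.07 TPM in library 1. All 3 were higher in library 2. Among the 39, Nr1h3 had rank 4 in library 2 and 25 in library 1, Nr1i2 had rank 8 in library 2 and 14 in library 1, and Nr1h2 had rank 10 in library 2 and 28 in library 1.

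The RXR partners were led by Rxra, the main hepatic form, with 101.49 TPM in library 2 and 9.87 TPM in library 1. Rxrb had 18.33 TPM in library 2 and 0.52 TPM in library 1, and Rxrg, known chiefly from muscle and brain, had 4.36 TPM in library 2 and 0.67 TPM in library 1. Rxra kept the first place among the 3 in both libraries, with 81.7% of their summed TPM in library 2 and 89.2% in library 1. Among all members, this shared partner of the sensors had rank 2 in library 2 and rank 10 in library 1.

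Among the fatty acid receptors, Ppara, which switches on fatty acid oxidation, had 41.84 TPM in library 2 and 11.99 TPM in library 1, a mean of 26.9 ± 21.1 TPM (SD, n = 2). Pparg, the adipocyte regulator, had 5.66 TPM in library 2 and 3.21 TPM in library 1, while 0 of 5 adipocyte markers were detected in both libraries. Ppard had 6.13 TPM in library 2 and 0.09 TPM in library 1, from 275 and 6 expected counts. Ppara made up 78.0% of the summed PPAR level in library 2 and 78.4% in library 1, the most even share of any leading paralog among the 11 families.

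Of the steroid receptors, Nr3c1, the glucocorticoid receptor, had 21.17 TPM in library 2 and 26.28 TPM in library 1 and a mean of 23.7 ± 3.61 TPM (SD, n = 2). Esr1, the estrogen receptor that this female liver expressed, had 8.37 TPM in library 2 and 11.92 TPM in library 1. Nr3c2, the mineralocorticoid receptor, had 2.25 TPM in library 2 and 1.97 TPM in library 1. Pgr, the progesterone receptor of the reproductive tract, had no count in either library. A count of 0 allows up to 0.0481 TPM in library 2 and 0.0325 TPM in library 1, taking 3 counts as the floor. These floors, like all intervals given here, cover counting error only.

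The receptors for thyroid hormone, retinoic acid and vitamin D sat lower. Thrb, the main thyroid hormone receptor of liver, had 9.53 TPM in library 2 and 10.39 TPM in library 1, a mean of 9.96 ± 0.608 TPM (SD, n = 2). Thra had 8.78 TPM in library 2 and 0.66 TPM in library 1. Of the retinoic acid receptors, Rarb was nearly level, at 2.21 TPM in library 2 and 2.19 TPM in library 1. Rara had 6.98 TPM in library 2 and 0.43 TPM in library 1, and Rarg had 3.76 TPM in library 2 and 0.37 TPM in library 1. The vitamin D receptor Vdr, whose protein acts mainly in gut, bone and kidney, had no count in library 2, which allows up to 0.197 TPM, and 1 count in library 1, at 0.01 TPM.

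Orphan receptors ranged from the top of the order to its end. Nr0b2, the small heterodimer partner SHP, which represses bile acid synthesis and is itself induced by FXR, had 86.87 TPM in library 2 and 1.71 TPM in library 1, from 1266 and 37 counts. Nr5a2, the liver receptor homolog that activates bile acid synthesis genes, was nearly level in TPM, at 20.26 in library 2 and 22.07 in library 1. With TPM taken over nuclear protein-coding genes only, it had 27.5 in library 2 and 58.7 in library 1. On the scaled counts described below it was lower in library 2. Nr2f6 had 41.83 TPM in library 2 and 3.54 TPM in library 1, and Nr2f2, known from vessels and mesenchyme, had 6.99 TPM in library 2 and 11.11 TPM in library 1. Their relative Nr2f1 was near the floor, with 0.09 TPM in library 2 and 0.15 TPM in library 1 from 4 and 10 counts.

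The related repressors Nr2c1 and Nr2c2 were close to each other, Nr2c1 with 5.08 TPM in library 2 and 5.77 TPM in library 1, and Nr2c2 with 5.20 TPM in library 2 and 4.86 TPM in library 1. Nr6a1, the germ cell nuclear factor, had 4.17 TPM in library 2 and 4.35 TPM in library 1. Nr4a1, a rapidly induced receptor, had 3.57 TPM in library 2 and 0.79 TPM in library 1. Esrra, which drives mitochondrial genes together with PGC-1 coactivators, had 12.96 TPM in library 2 from 394 counts and 0.02 TPM in library 1 from 1 count. Its ratio of library 2 over library 1 was the largest of any member, and it rests on that single count.

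The coregulators were more even between the libraries, with a median log2 fold of 0.71 in size over 8 coregulators and 1.52 over 28 tested receptors, from TMM-scaled counts. Over all tested genes it was 1.15. Median GC content was 48.1% for the coregulators and 53.7% for all 31 receptors. With the GC curve described below subtracted, the sizes were 0.39 for coregulators, 0.76 for receptors and 0.47 for all genes. The difference between coregulators and receptors was not tested. Ncor1, the corepressor that recruits histone deacetylase to unliganded receptors, led them with 38.12 TPM in library 2 and 22.49 TPM in library 1. Nrip1, a corepressor that binds liganded receptors, had 2.61 TPM in library 2 and 3.81 TPM in library 1. Med1, the Mediator subunit that contacts liganded receptors, had 8.83 TPM in library 2 and 7.13 TPM in library 1. The steroid receptor coactivators were led by Ncoa2, with 8.49 TPM in library 2 and 6.71 TPM in library 1. Ncoa3 had 6.5 TPM in library 2 and 2.31 TPM in library 1, and Ncoa1 had 3.19 TPM in library 2 and 2.41 TPM in library 1. Of the PGC-1 coactivators, which raise gluconeogenesis and mitochondrial output, Ppargc1a had 2.54 TPM in library 2 and 2.97 TPM in library 1, and Ppargc1b had 1.07 TPM in library 2 and 0.06 TPM in library 1. All but Ppargc1b passed 1 TPM in both libraries.

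The median receptor lay above the median coregulator in library 2, by 0.86 on the log2(TPM + 0.1) scale, and below it in library 1, at -0.60. The gap averaged 0.13 ± 1.03 (SD, n = 2 technical libraries), less than its spread. In the order of the 39 by mean TPM, the ranges over the libraries overlapped in 37 of 38 pairs of neighbours, all but Nr2f1 and Vdr. Compared within each library, 5 of the 38 pairs kept their order in both: Nr1i3 over Nr1h4, Rxra over Nr0b2, Med1 over Ncoa2, Rarg over Ppargc1b and Nr2f1 over Vdr. Spearman's rho of TPM between the libraries was 0.54 over the 39 members and 0.42 over the 36 detected in either library, beside 0.73 over the 10823 nuclear protein-coding genes detected in either. These are descriptions across genes, which are not independent replicates. Of the 10 highest receptors in library 2, 5 were among the 10 highest in library 1: Nr1i3, Nr1h4, Rxra, Ppara and Nr3c1.

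**Figure D1:**
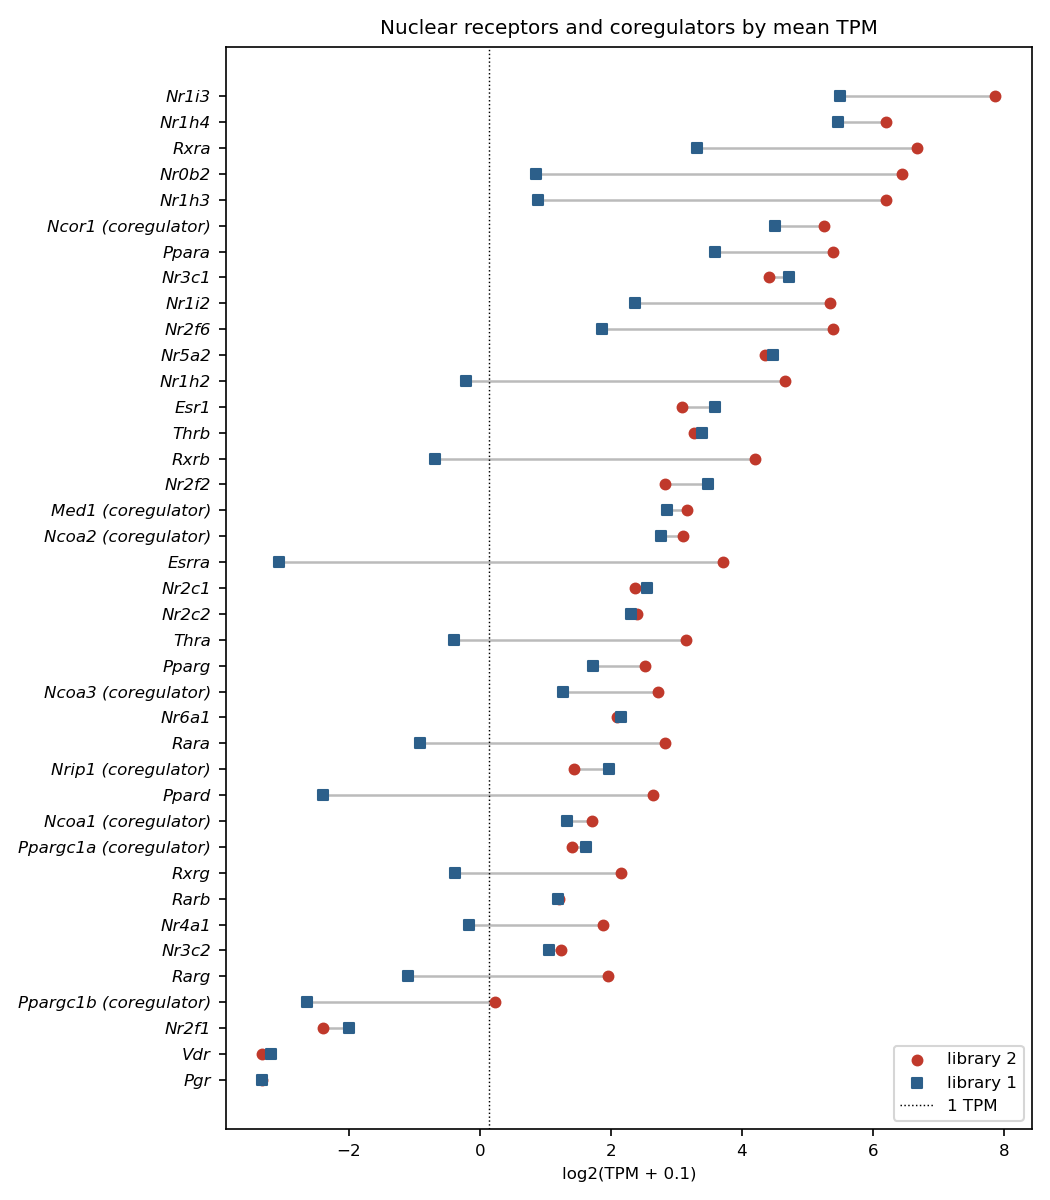
Level of each of the 39 genes as log2(TPM + 0.1), ordered by mean TPM, with circles for library 2 and squares for library 1 of the same liver. The dotted line marks 1 TPM, which 26 genes passed in both libraries; Esrra, Ppard, Nr1h2 and Rxrb stood far above it in library 2 and below it in library 1, while Nr5a2, Nr2c2 and Rarb nearly coincided.

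Counts of the libraries were then compared gene by gene, to say which members differed by more than counting error and by a set size of fold. Expected counts were scaled by TMM, and calls required both a log2 fold, library 2 over library 1, of at least 1 in size and a Benjamini-Hochberg adjusted p below 0.05. The test sets the reads of these libraries against each other, and not any condition. Of the 39 members, 36 had a summed count of at least 20 and were tested, all but Nr2f1, Vdr and Pgr, and 6 of these 36 had fewer than 20 counts in library 1. Of the 36, 16 rose in library 2, beside 32.7% of the 12728 genes tested, and 8 fell, beside 23.8% of them. Either call was made for 24 of 36, or 66.7%, against 56.5% of all tested genes. The median log2 fold was 0.14 over the 36 members and 0.04 over all genes.

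The higher side held 4 of the 5 sensors of sterols, bile acids and foreign chemicals, all 3 RXR genes and Ppard among its 16, beside 32.7% of all tested genes. With the curve on GC content described below subtracted, Nr1h3, Nr1h2, Nr1i2 and Ppard stayed higher, and Nr1i3 and the RXR genes were not called. Nr1i3 rose by a log2 fold of 1.28 (exact 95% interval 1.22 to 1.34). Rxra rose by 2.42 (2.33 to 2.51) and Nr1h3 by 4.48 (4.13 to 4.87). Nr0b2 rose by 4.76 (4.30 to 5.29), with an adjusted p of 1.10e-263 by the exact binomial test. Esrra rose most, by 7.77, but its single count in library 1 leaves an interval of 5.81 to 13.61. The others that rose were Nr1i2, Nr2f6, Nr1h2, Rxrb, Thra, Rara, Ppard, Rxrg, Nr4a1, Rarg and Ppargc1b, with log2 folds between 1.29 for Nr4a1 and 5.20 for Nr1h2. Ppargc1b was the only coregulator among the 16.

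The 8 that fell were Nr3c1, Nr5a2, Esr1, Thrb, Nr2f2, Nr2c1, Nrip1 and Ppargc1a. Nr2f2 fell by 1.62 on the log2 scale, and Nrip1 fell by 1.44. Nr3c1 fell by 1.29, with 1871 counts in library 2 against 3669 in library 1, with an adjusted p of 1.98e-232 by the exact binomial test. Their folds, between -1.03 for Thrb and -1.62 for Nr2f2, were smaller in size than most on the higher side, and some of the 8, such as Nr5a2 and Thrb, had nearly level TPM. These calls depended on the scaling. Scaled to the total count, which moves the median of all genes to 0.62, 17 members were called higher and Nr2f2 alone lower, 18 of 36 in all, beside 41.9% higher, 7.49% lower and 49.3% either way of all tested genes.

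The 12 tested members not called were Nr1h4, Ncor1, Ppara, Med1, Ncoa2, Nr2c2, Pparg, Ncoa3, Nr6a1, Ncoa1, Rarb and Nr3c2. All of them except Pparg met the limit on the adjusted p and missed only that on the fold. Not being called therefore does not mean a difference within counting error. Nr1h4 had a log2 fold of -0.17 (exact 95% interval -0.26 to -0.08), although its TPM was higher in library 2. Scaled to total count its fold was 0.41. Of the 36, 27 had the higher TPM in library 2, and 9 of these had a log2 fold below 0. No such share is given for all genes, so the 27 cannot be read as particular to the members. TPM is a share of all transcripts, mitochondrial ones included, whereas the TMM-scaled folds are relative to the bulk of genes.

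The fold, taken with its sign, went with the base composition of the transcripts. Across the 36 members, Spearman's rho between the log2 fold and the GC content of the annotated transcripts, averaged per gene, was 0.85, and it was 0.87 over the 12694 tested genes with a GC value. No GC content was lower among the 16 higher members than 53.2%, and none was higher among the 8 lower members than 50.7%. All 12 tested members with at least 55% GC were called higher, beside 87.5% of all tested genes in that range. Of the 15 members between 45% and 50% GC, 0 were called higher and 7, or 46.7%, lower, beside 2.85% higher and 22.5% lower of all genes there. The median log2 fold was -0.87 over these 15 members and -0.52 over all genes of that range, and 3.86 over the 12 members of at least 55% GC and 2.73 over all genes there. These differences from all genes were not tested.

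**Figure D2:**
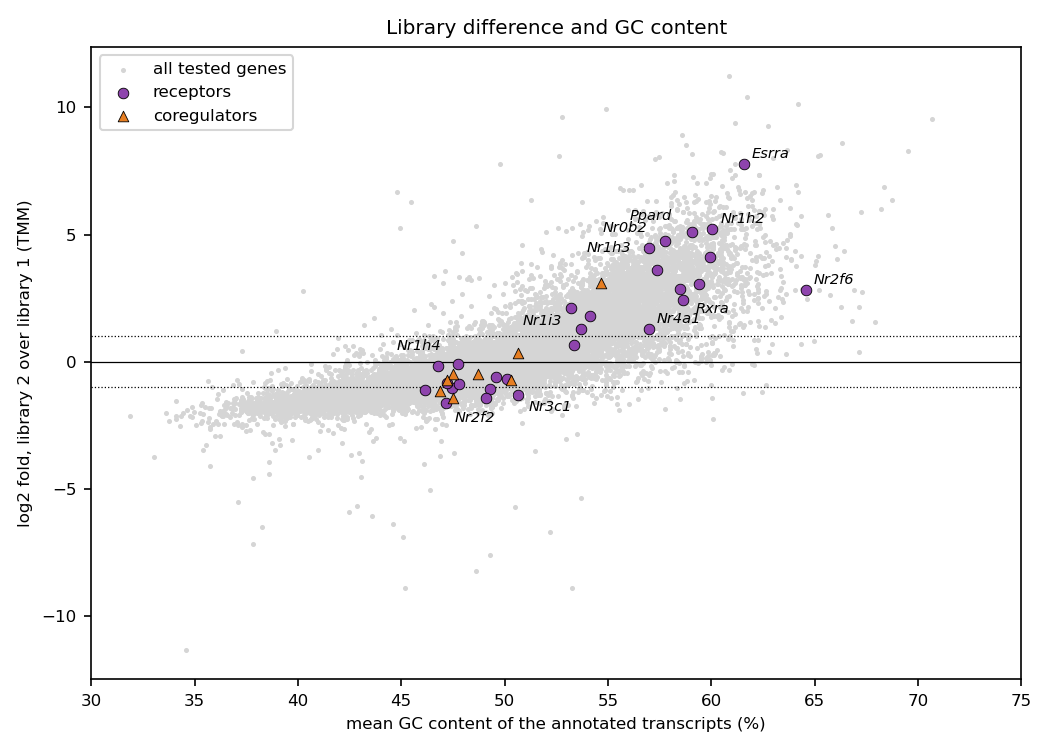
Log2 fold of library 2 over library 1 on TMM-scaled counts, against the mean GC content of a gene's annotated transcripts in percent; grey points are all tested genes, circles the 28 tested receptors, triangles the 8 coregulators, and dotted lines a fold of 1 in either direction. Esrra, Nr1h2, Ppard and Nr0b2 lie high at 57.8% to 61.6% GC, and Nr2f2 and Nr3c1 lie below 0.

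When a smooth curve of the fold on GC content was subtracted over all genes, 12 of 36 members were called, 7 higher and 5 lower, beside 20.2% of all genes, 9.79% higher and 10.4% lower. The 7 higher were Nr0b2, Nr1h3, Nr1i2, Nr1h2, Esrra, Ppard and Ppargc1b, with adjusted folds such as 1.90 for Nr0b2 and 3.83 for Esrra. The 5 lower were Nr3c1, Esr1 and Nr2f2, lower before as well, and Nr2f6 and Nr4a1, which had been higher. The curve used the plain mean over annotated transcripts, which can differ from the leading isoform. That isoform has 41.5% GC against a mean of 50.7% in Nr3c1, and 45.4% against 49.1% in Esr1. It has 45.3% against 47.2% in Nr2f2 and 67.3% against 64.6% in Nr2f6, and Nr4a1 has 1 transcript. What this averaging does to the calls was not tested. Nr1i3 came to 0.00 and Rxra to -0.74, so the curve matched or exceeded their whole fold. Of the median over the members, 0.14, the subtraction left -0.29. The part of GC content in the library difference was not tested further.

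Base composition of the zinc finger codons shown above did not follow the fold in the same way. Over the 27 receptors with a finger and a fold, Spearman's rho with the log2 fold was 0.20 for the GC content of the finger and 0.28 for that of the last codon bases. The finger of Nr2f2 was 66.7% GC and that of Ppard 71.4%, yet Nr2f2 had the lowest fold of the members and Ppard one of the highest. Their whole transcripts differed more, with 47.2% GC for Nr2f2 and 59.1% for Ppard. Nr1i3 and Nr1h4 had the same finger GC content, 60.3%, beside 53.7% GC over the transcripts of Nr1i3 and 46.8% over those of Nr1h4.

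**Figure D3:**
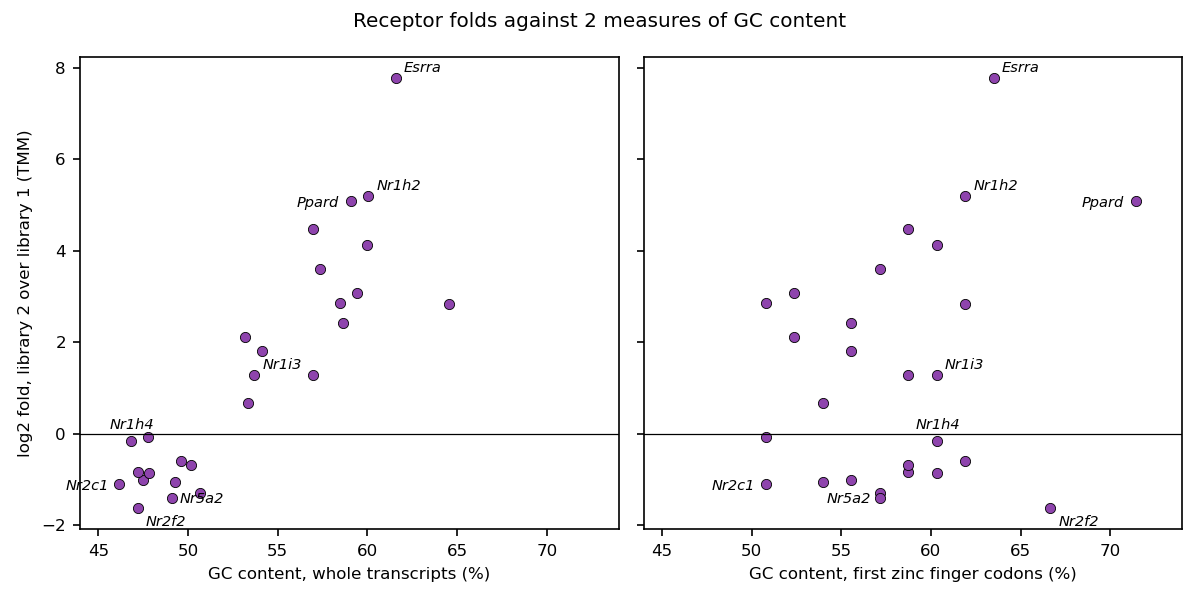
Log2 fold of library 2 over library 1 for the 27 tested receptors with a zinc finger, against the GC content of whole transcripts (left) and of the 63 finger bases (right), both in percent. Folds climb with the GC content on the left and scatter on the right, where Nr2f2, at 66.7%, sits below 0 and Ppard, at 71.4%, near 5.10.

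Within families, the paralog that appeared dominant could depend on the library. In 7 of 11 families the same gene had the highest TPM in both libraries, among them Rxra, Ppara, Nr1i3, Nr3c1, Ncoa2 and Ppargc1a. In 4 it changed. In the Nr1h family Nr1h3 led narrowly in library 2, with 42.7% of the summed TPM, and Nr1h4 in library 1, with 94.6%. In the Nr2f family Nr2f6 led in library 2 with 85.5% and Nr2f2 in library 1 with 75.1%. Among retinoic acid receptors Rara led in library 2 with 53.9% and Rarb in library 1 with 73.2%, and Nr2c2 and Nr2c1 exchanged places by small margins. Thrb led Thra in both libraries, but with 52.0% of their sum in library 2 and 94.0% in library 1.

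In 9 of the 11 families, the most GC-rich tested member also had the largest fold. The exceptions were Nr1i2 with Nr1i3, whose GC contents were 53.2% and 53.7%, and Nr3c2 with Nr3c1, at 50.1% and 50.7%. In both exceptions the members differed by under 1 percentage point.

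**Figure D4:**
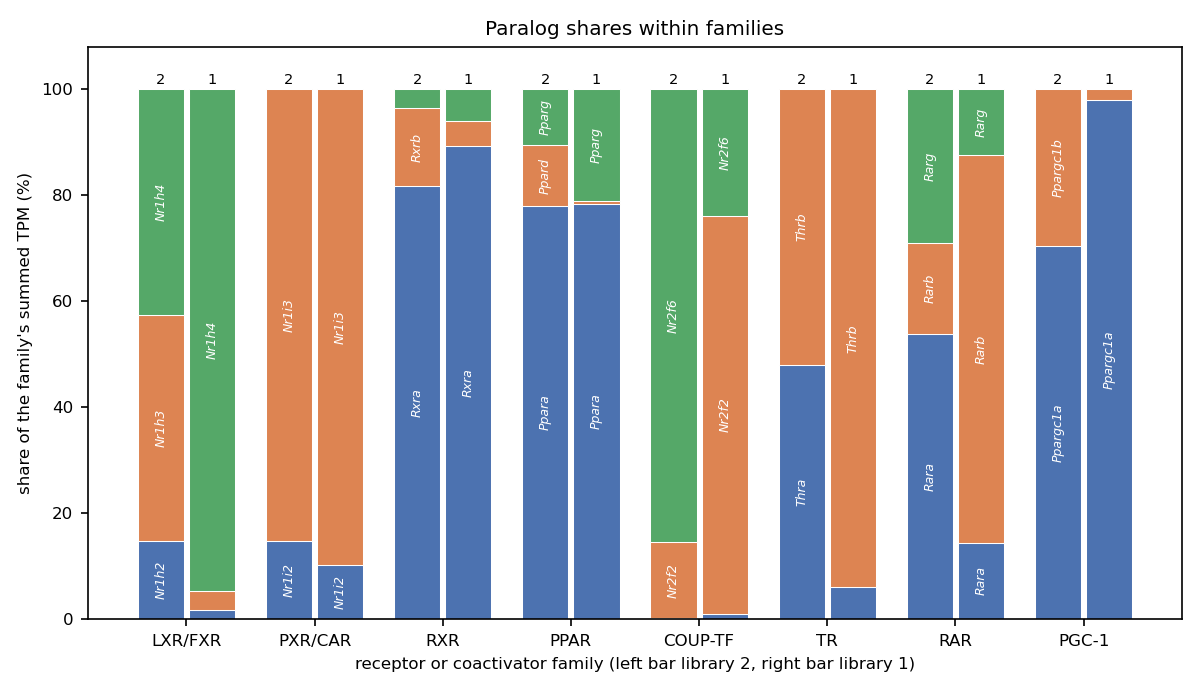
Share of each gene in its family's summed TPM, in percent, for 8 of the 11 families, with library 2 as the left bar and library 1 as the right bar of each pair. Nr1h4 fills 94.6% of the LXR/FXR bar in library 1 and shares it with Nr1h3 and Nr1h2 in library 2, Nr2f2 and Nr2f6 trade places in the COUP-TF bars, and Rxra and Ppara lead in both.

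Isoform shares could be compared in 30 members with a mean TPM of at least 1 and at least 2 annotated transcripts. The same isoform led in both libraries in 23 of them and differed in Med1, Ncor1, Nr1h2, Nr1h3, Nr1h4, Rara and Thra. In Nr1h2, Nr1h3, Rara and Thra library 1 held between 13 and 64 counts, and among the 21 members with at least 100 counts in both libraries the leading isoform differed in Med1, Ncor1 and Nr1h4. By share of the counts, the leader of Med1 and of Ncor1 did not differ. Med1-203 held 75.6% of the counts in library 2 and 70.5% in library 1, and Ncor1-204 held 40.1% in library 2 and 58.6% in library 1. In 11 members 1 isoform held over 90% of the TPM in both libraries, as in Rxra with 95.7% in library 2 and 100% in library 1, and in Esr1 with 95.6% in library 2 and 97.3% in library 1.

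A large part of the Nr1i3 level came from transcripts not annotated as coding. Its leading coding isoform Nr1i3-208 held 37.3% of the gene's TPM in library 2 and 51.6% in library 1, and the retained-intron transcript Nr1i3-207 held 31.7% in library 2 and 42.8% in library 1. Retained-intron transcripts together made up 44.95% in library 2 and 46.33% in library 1, so this share was nearly level while the gene's TPM was not. The nonsense-mediated decay transcript Nr1i3-204 had 7.41% in library 2 and 0% in library 1.

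In Nr1h4 the shift was between coding isoforms. Nr1h4-201 held 58.0% in library 2 and 36.3% in library 1, and Nr1h4-203 held 36.8% in library 2 and 46.6% in library 1. Ppara-202 held 74.2% in library 2 and 99.2% in library 1, while the coding Ppara-201 held 15.8% in library 2 and 0.81% in library 1, and the noncoding Ppara-205 held 7.72% in library 2 and 0% in library 1. The coactivator Ncoa2 was split in library 2, with 46.4% for Ncoa2-203 and 36.7% for Ncoa2-202, and nearly single in library 1, with 96.0% for Ncoa2-203 and 0% for Ncoa2-202, from 375.65 and 0 expected counts of Ncoa2-202. In Ncor1, with 26 transcripts, no isoform held over 30% in either library, and the leader in library 2, the retained-intron Ncor1-223, rested on 51 of 1947 counts. These shares are the authors' estimates, and no error came with them.

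**Figure D5:**
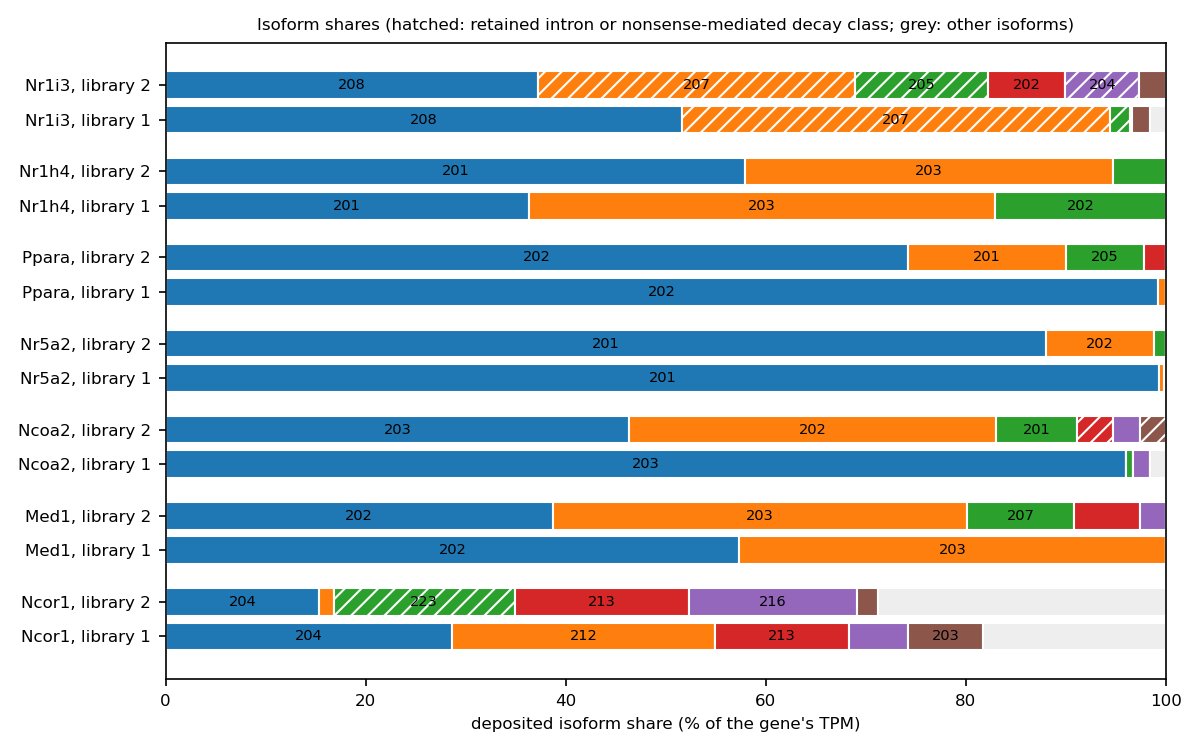
Deposited isoform share in percent of the gene's TPM for 7 members, with library 2 above library 1; numbers name the isoform, colours run from the isoform with the largest share down within each gene, hatching marks retained-intron and nonsense-mediated decay classes, and grey is all further isoforms. Nr1i3 carries hatched isoforms in both libraries, and Ncoa2-202 stands at 36.7% in library 2 and at 0% in library 1.

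Some members share exon sequence with a neighbour, and the strand setting of the counting is not given in the sources used here. Such overlaps touched 12 of the 39, and in 9 the partner had at least 20 counts in a library. The exons of Nr1i3 (chr1:171213970-171220701, plus strand, mm10) overlapped those of Tomm40l on the opposite strand over 74.9% of their bases, though Tomm40l had 126 counts in library 2 and 26 in library 1. For Rarb, 34.1% of exon bases lay in Top2b, with 876 counts in library 2 and 2446 in library 1, well above those of Rarb, so its level is uncertain. Nr2f6 shared 54.4% with Ocel1 and Nr2c2 30.7% with Mrps25. Thra shared 5.70% with Nr1d1, which had 1389 counts in library 2 and 138 in library 1 beside 265 and 17 for Thra.

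Nr0b2, the most uneven of the members near the top of the order, had a TATA box match in its promoter window. The 250 bases before its RefSeq start (GRCm38.p6, chr4:133553126-133553375, plus strand) are given with the TATAAA match in capitals, 28 bases before the start.
Nr0b2: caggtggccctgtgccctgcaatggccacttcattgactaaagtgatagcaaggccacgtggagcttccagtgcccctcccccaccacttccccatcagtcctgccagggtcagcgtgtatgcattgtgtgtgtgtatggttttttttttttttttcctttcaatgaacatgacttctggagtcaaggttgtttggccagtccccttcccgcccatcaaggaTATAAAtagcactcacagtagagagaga
TATAAA was found on either strand in 5 of 51 windows of 34 members (9.80%), each from 250 bases before to 50 after a start, and in 13.6% of all 32851 windows. AGGTCA, the core motif many nuclear receptors bind, was found in 10 of the 51 (19.6%) and in 16.3% of all windows. CAAGGTCA, which contains it, was found in none of the 51 and in 1.56% of all windows. The windows of members were richer in GC than most, with a median of 59.3%, beside 52.7% for all, and a median of 12 CpG pairs, beside 7. Among them, windows of the members detected in library 2 alone had a median GC content of 66.2%, those of members detected in both had 57.7%, and the 4 windows of members detected in neither had 52.5%. This split was made by the levels in these same libraries.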

How the data were processed

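PolyA RNA of 1 mouse liver was sequenced as 2 libraries. The authors deposited, for each, a gene and a transcript table with expected counts (estimated counts per feature, not normalised), TPM and FPKM values (normalised for length and depth), posterior mean estimates, and percent shares of each isoform. The tables use mm10 and annotation M4, per the file headers and accompanying notes. For the aligner, quantifier and strand setting, this is not given in the sources used here. Symbols, biotypes, coordinates, GC content and finger codons came from GENCODE M21, promoter windows from RefSeq. Of the 238 member transcripts, 237 had an M21 entry and 214 the same length there. GC content is the plain mean over a gene's transcripts with an M21 entry.

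Genes were kept where both libraries together had 20 or more rounded expected counts, and library sizes were scaled by TMM (edgeR 4.0.16, R 4.3.3; factors 1.22 for library 2 and 0.818 for library 1). With 1 library on each side, edgeR's quasi-likelihood test has no residual degrees of freedom. A two-sided exact binomial test of the 2 counts (scipy 1.17.1) was used, with Benjamini-Hochberg adjustment over 12728 genes and a prior count of 0.5 in the fold. On simulated counts, the test called 186 of 200 changed genes in the right direction, and 1 unchanged gene. Those counts held counting error alone, so they cannot show how the test behaves under GC or preparation differences. Where a p-value was below the smallest number the software holds, the 95% interval is given alone. The GC curve is a loess fit, span 0.3. DESeq2 1.42.0 gave the other size factors. The first zinc finger was taken as the first match, in an open reading frame, of 4 cysteine codons separated by 2, 13 and 2 others and followed by a lysine codon. Coding transcripts were searched from the most abundant down. All 39 members may be named. From other lists, counts and up to 4 genes of highest mean TPM are named, and the called gene with the largest fold each way. The members, lists and sequence searches were chosen with earlier results of these data known. Replicates are technical, with 1 library on each side. The p-values set the counts against counting error alone and measure no spread between libraries.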

Additional observations from a re-analysis of the deposited data

How the results depend on the processing

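No paired analysis was possible because the series holds 1 group of 2 technical libraries. Detection in both libraries fell to 14 members at 5 TPM; with 1 library alone it ranged from 26 (library 1) to 36 (library 2). The median member level of 4.98 TPM became 8.69 when only nuclear protein-coding genes were summed, and ranged from 2.97 (library 1) to 6.99 (library 2). The receptor-minus-coregulator gap ranged from -0.60 (library 1 alone) to 0.86 (library 2 alone), so its sign rested on the library. Lower calls numbered 8 with TMM and 1 with total-count scaling, beside 23.8% and 7.49% of all tested genes. At a log2 fold of at least 1.5 they numbered 1, and 15 calls remained in all. No share of all tested genes is given at 1.5, so that count does not set the members apart from other genes. Subtracting the GC curve left 12 calls, 7 higher and 5 lower. The median fold of 0.14 became -0.29 once the GC curve was subtracted, and 0.71 under total-count scaling. That curve turned the sign of 8 folds, 5 of them called (Rxra -0.74, Nr2f6 -1.69, Rara -0.33, Nr4a1 -1.28, Rarg -0.26) and 3 not (Ppara -0.49, Nr1h4 0.44, Pparg 0.36). Another 9 calls ended without a change of sign, with folds left between -0.96 (Nrip1) and 0.89 (Thra); that of Nr5a2 was -0.93 after the curve, against -1.06 before, where a call needs a size of at least 1. Of the others, total-count scaling ended 7 calls, added 1 (Ppara, 1.24) and left 28. Leaving out the count filter ended the call of Thrb (-0.99); DESeq2 size factors and leaving out mitochondrial genes ended none of the 24. Leading isoforms differed in 4 of 30 members by count share and, in a check added after seeing the data, in 3 of 21 with at least 100 counts in both libraries, against 7 of 30. Members of few counts in library 1, such as Esrra with 1, have wide intervals. The cause of these shifts was not tested.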

Other observations

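Other genes of the same system were measured in the same libraries. Of 18 further nuclear receptors, 8 were detected in both libraries and 10 in neither, 5 of them with no count at all: Rorb, Nr2e1, Nr2e3, Nr5a1 and Nr0b1, known from brain, retina, adrenal and gonad. The highest was Hnf4a, a master regulator of hepatocyte genes, with 171.88 TPM in library 2 and 49.71 TPM in library 1, above all members except Nr1i3 in library 2 and above every member in library 1. The clock repressor Nr1d1 had 38.37 TPM in library 2 and 3.08 TPM in library 1. Of 20 further coregulators, 14 were detected in both libraries; Ncoa4, a coactivator also known as the ferritin cargo receptor, had 62.29 TPM in library 2 and 61.23 TPM in library 1.

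Target genes known for these receptors were detected in most classes. Of 16 targets of Nr1i2 and Nr1i3, 15 were detected in both libraries, and the drug-metabolising enzyme Cyp3a11 had 3438 TPM in library 2 and 5094 TPM in library 1. In both libraries 17 of 18 targets of Ppara, 12 of 13 of the glucocorticoid receptor, 10 of 11 of Nr1h4, 9 of 11 of the LXR pair and 6 of 6 of the thyroid hormone receptors were detected. Only 3 of 8 retinoic acid targets and 0 of 3 vitamin D targets were, where Vdr itself had at most 1 count. Between the libraries, 3 of the 16 targets of Nr1i2 and Nr1i3 were higher and 5 lower in library 2, beside 32.7% higher and 23.8% lower of all tested genes; under total-count scaling 3 were higher and 1 lower. Of the 13 glucocorticoid targets 5 were higher and 1 lower. Under total-count scaling 9 of them were higher and 0 lower, beside 41.9% higher and 7.49% lower of all tested genes. Cyp3a11, lower in library 2, has transcripts of 41.0% GC, and Por, the electron donor of these enzymes and the one with the largest rise, 56.5%. After the GC curve none of the 16 were called, and of the 13, 2 were higher and 0 lower. Of all tested genes 9.79% were then higher and 10.4% lower. In the other classes, with TMM scaling, 4 of 17 tested Ppara targets were higher and 1 lower. Of 10 tested Nr1h4 targets 4 were higher and 1 lower, and of 11 LXR targets 2 were higher and 2 lower. Of 6 thyroid hormone targets 1 was higher and 0 lower, as were 1 and 0 of 5 tested retinoic acid targets. After the GC curve 3 Ppara targets were higher and 1 lower, 2 Nr1h4 targets higher and 1 lower, and 1 LXR target each way. Thyroid hormone targets then had 0 higher and 1 lower, and retinoic acid targets 1 higher and 2 lower. No test of the lists was made.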
